A study of Homo sapiens with 2 samples.

Results

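Forkhead genes encode transcription factors that share a winged-helix DNA-binding domain, the forkhead box, and this account describes how the histone mark H3K9me3 lay over them in KBM7 cells. KBM7 is a near-haploid human line from a chronic myeloid leukemia, a cancer of the myeloid blood lineage. The study holds 2 chromatin immunoprecipitation libraries, 1 with an antibody against H3K9me3 and 1 with IgG as the control antibody, both from KBM7 cells with no treatment named. Every value below comes from the H3K9me3 library. The IgG library was not used here, so no value has a replicate or a control beside it. The members were chosen by name: symbols of chromosomes 1 to 22 that read FOX, a letter from A to S and a number, with an optional letter and digit after it. The rule found 46 genes among 34280 autosomal symbols, each with 1 deposited interval, holding 0 to 21832 reads.

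Forkhead factors are named by subfamily letter. FOXA proteins are pioneer factors that open chromatin in the developing gut and liver, and FOXC, FOXF and FOXL factors act in mesoderm, lung, gut, eyelid and ovary. FOXO proteins are held in the cytoplasm by AKT kinases and enter the nucleus when insulin signalling is low, FOXM1 drives genes of mitosis, and FOXP1 acts in lymphocyte development. H3K9me3 is laid down by methyltransferases such as SETDB1 and SUV39H1, is bound by HP1 proteins and is known for silenced repeats and for genes of other lineages. The 26 members of subfamilies FOXA to FOXI and FOXL form the class called tissue-restricted here, and the 17 members of FOXJ, FOXK, FOXM, FOXN, FOXO and FOXP as widely expressed. FOXQ1, FOXR1 and FOXS1 belong to neither. No RNA was measured, so these classes follow the subfamily letter and could not be checked in these cells. FOXJ1 of motile cilia, FOXN1 of the thymus, FOXN4 of the retina, FOXO6 and FOXP2 of the brain are known to be restricted but fall in the second class by their letter. Of the 26, 7 are FOXD4 and its near-identical copies, and FOXO3B, a near-identical copy of FOXO3, is among the 17.

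The DNA before the start of a few members is shown here because these genes differ in whether a peak lay over the start. Each line gives the 250 bases before the RefSeq start on GRCh38.p14, 5′ to 3′, with every CG dinucleotide, the site of DNA methylation, in capitals. A deposited peak lay over the hg19 start of the first 2 genes, and no peak lay within 5 kb of the start of the other 4.
FOXE1 (chr9:97852976-97853225, forward strand): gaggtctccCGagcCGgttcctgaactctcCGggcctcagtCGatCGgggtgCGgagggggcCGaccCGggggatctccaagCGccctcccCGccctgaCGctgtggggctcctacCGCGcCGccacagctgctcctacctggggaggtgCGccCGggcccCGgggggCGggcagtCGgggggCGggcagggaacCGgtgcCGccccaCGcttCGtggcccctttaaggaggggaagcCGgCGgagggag
FOXL2 (chr3:138947138-138947387, reverse strand): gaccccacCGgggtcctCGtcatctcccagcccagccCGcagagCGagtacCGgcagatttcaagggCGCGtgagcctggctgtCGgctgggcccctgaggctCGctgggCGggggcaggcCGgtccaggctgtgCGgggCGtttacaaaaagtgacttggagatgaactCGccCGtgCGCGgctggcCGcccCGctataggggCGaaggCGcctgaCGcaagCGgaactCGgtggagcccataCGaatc
FOXA3 (chr19:45864076-45864325, forward strand): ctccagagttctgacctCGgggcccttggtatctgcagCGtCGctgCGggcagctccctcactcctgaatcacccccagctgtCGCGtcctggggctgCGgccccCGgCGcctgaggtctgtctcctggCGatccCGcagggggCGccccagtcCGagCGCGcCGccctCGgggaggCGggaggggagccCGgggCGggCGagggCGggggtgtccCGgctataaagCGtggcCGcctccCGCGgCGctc
FOXI1 (chr5:170105647-170105896, forward strand): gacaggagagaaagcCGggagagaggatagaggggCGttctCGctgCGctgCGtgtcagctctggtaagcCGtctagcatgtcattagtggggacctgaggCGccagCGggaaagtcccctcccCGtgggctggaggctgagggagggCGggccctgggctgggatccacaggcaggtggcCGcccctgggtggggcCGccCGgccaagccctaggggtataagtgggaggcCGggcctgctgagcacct
FOXO1 (chr13:40666642-40666891, reverse strand): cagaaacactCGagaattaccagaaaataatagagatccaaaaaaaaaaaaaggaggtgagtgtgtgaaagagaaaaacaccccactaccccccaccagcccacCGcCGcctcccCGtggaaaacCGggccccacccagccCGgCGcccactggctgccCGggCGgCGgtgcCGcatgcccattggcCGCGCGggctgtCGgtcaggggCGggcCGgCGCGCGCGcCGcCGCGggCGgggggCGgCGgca
FOXJ2 (chr12:8032466-8032715, forward strand): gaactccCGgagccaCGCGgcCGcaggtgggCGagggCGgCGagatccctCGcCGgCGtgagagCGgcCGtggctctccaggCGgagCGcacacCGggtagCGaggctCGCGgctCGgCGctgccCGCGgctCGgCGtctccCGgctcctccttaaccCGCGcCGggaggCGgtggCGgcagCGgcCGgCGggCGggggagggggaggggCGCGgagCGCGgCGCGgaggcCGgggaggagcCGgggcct

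All 6 sequences were rich in G and C, with and without a peak. FOXE1 and FOXL2 held 75.6% and 68.4% G and C with 26 and 25 CG dinucleotides. FOXA3 held 75.2% with 28, FOXI1 68.4% with 14, FOXO1 67.2% with 27 and FOXJ2 81.2% with 42. RefSeq windows were found for 34 members, 30 of them with a single window. Among these 30, the 4 restricted genes with a peak within 1 kb of the start (FOXA1, FOXB2, FOXE1, FOXL2) held 66.8% to 75.6% G and C, with a median of 67.8%. The 8 restricted genes without one, copies left out, held 55.6% to 76.8% with a median of 69.6%, so the ranges overlapped. The 9 widely expressed genes, FOXO3B left out, held 63.2% to 85.6% with a median of 73.6%. The 9403 windows of protein-coding symbols had a median of 62.8%. CG was searched for as the letters CG, which read the same on both strands, and was present in 30 of 30 member windows and in 96.7% of protein-coding windows. By number, the median was 25.5 CG dinucleotides in the 4 genes with a start peak, 22 in the 8 without, 33 in the 9 widely expressed genes and 18 over protein-coding genes. Members named below without a window are FOXA2, FOXC2, FOXD4L2, FOXE3, FOXF1, FOXH1, FOXJ1, FOXL1, FOXM1, FOXN2 and FOXS1. The windows are on another build than the peaks, and whether both place a start at the same base was not tested. The 6 genes shown had nearly the same length in both sources, with a ratio of 0.988 to 1.01. Some other genes in the medians above differed more. The ratio was 1.77 for FOXA1, 18.4 for FOXB1, 1.77 for FOXD2 and 0.459 for FOXN1, so their windows may lie away from the deposited starts.

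H3K9me3 scores of the forkhead genes ran from 0 to 237 reads per kb. The score is the number of reads in a gene interval divided by its length in kb. Its median over protein-coding genes still differed between length classes, as given below. The 46 members had a median of 40.1, close to the 43.6 of all autosomal symbols and above the 34.4 of the 17792 protein-coding ones. Of the 46, 22 lay above the median of all autosomal symbols and 24 below it, where the background is 50% of all autosomal symbols and 37.2% of protein-coding ones above it. A score of at least 2 times that median was reached by 8 members, all of them restricted, against a background of 20.9% of all symbols and 10.4% of protein-coding symbols. A score at or below that median divided by 2 was found in 12 members, against a background of 21.9% and 28.7%. A peak overlapped 19 members by 1 bp or more, which is 41.3%, against a background of 37.1% of all symbols and 43.8% of protein-coding symbols. In 7 members peaks took 50% or more of the interval, against a background of 5.64% of all symbols and 4.36% of protein-coding symbols. As a whole the family thus lay near the background in its median and in its share with a peak, without regard to length. Under 10 kb, 8 of 28 members (28.6%) held a peak, against a background of 19% of protein-coding symbols. At 10 kb or more, 11 of 18 members (61.1%) did, against 52.4%. For scale, the 465 zinc finger genes named ZNF with a number, known targets of the mark, had a median score of 119, and 8 autosomal housekeeping genes one of 12.3. Intervals given with scores are exact 95% Poisson intervals and cover counting error only.

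**Figure D1:**
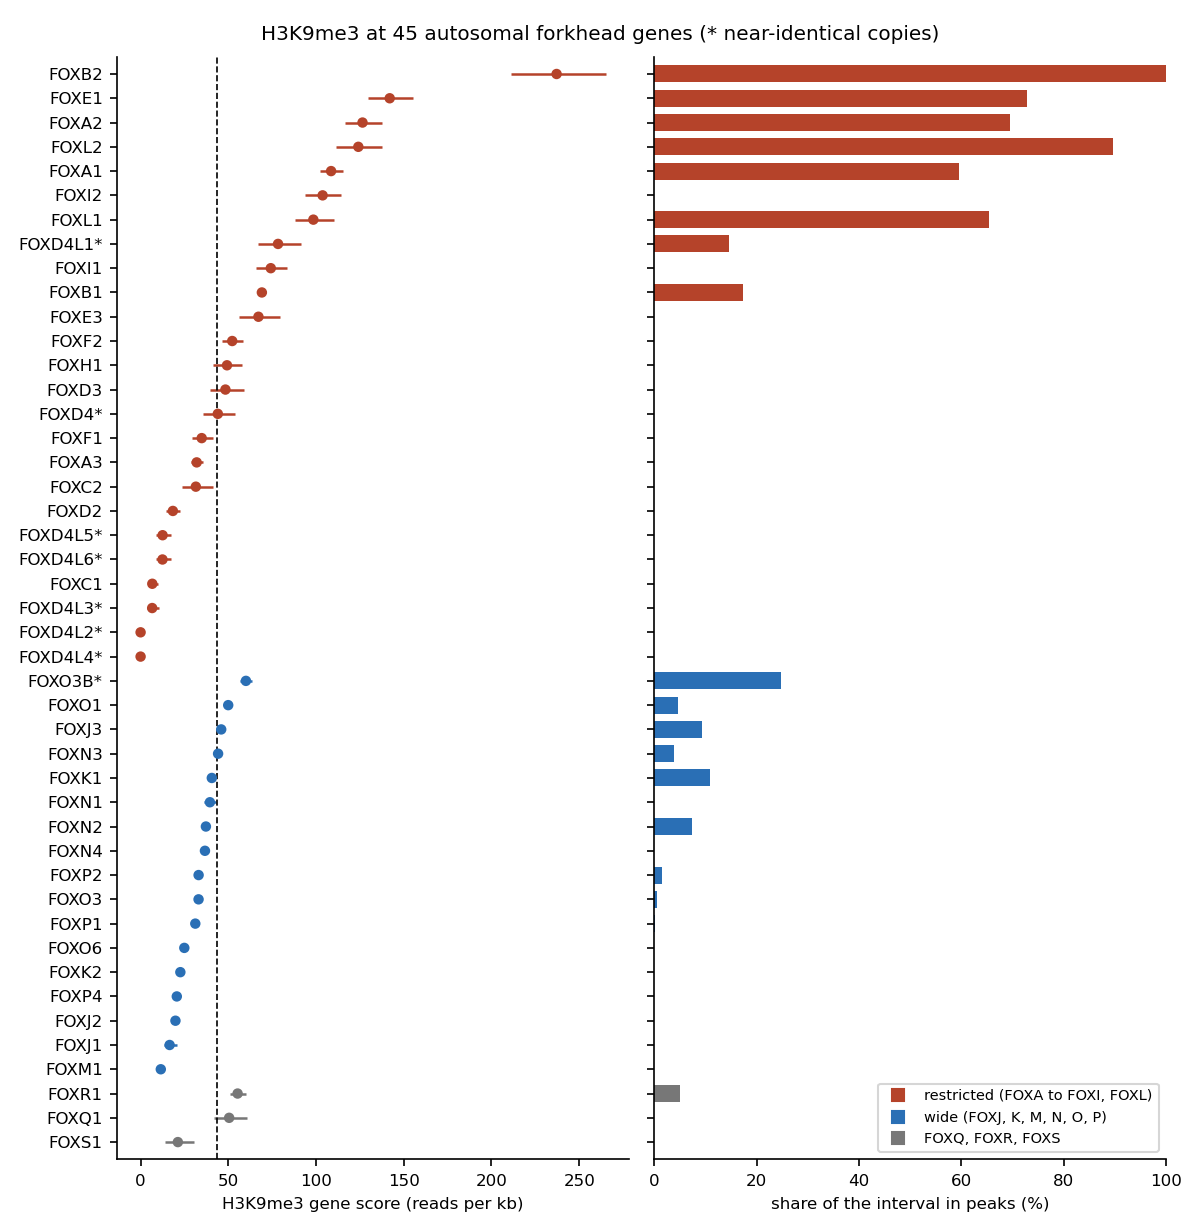
H3K9me3 gene score in reads per kb (left, points with exact 95% Poisson intervals, dashed line at the median of 43.6 over autosomal symbols) and the share of each gene interval lying in peaks (right, bars) for 45 of the 46 forkhead genes, by class. Restricted genes spread from 0 to 237 reads per kb, and the 6 with the highest cover drawn had 59.6% to 100% of their length in peaks, whereas widely expressed genes lay between 11.5 and 60.0 with at most 24.7% in peaks.

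Among the restricted genes, 7 carried H3K9me3 over most of their length, among them FOXB2, FOXL2, FOXE1, FOXA2, FOXL1 and FOXA1. The tissues these factors are known from include thyroid, liver, ovary and gut mesenchyme. FOXB2, a relative of the neural factor FOXB1, had the highest score of the family. It held 308 reads over 1.30 kb on chromosome 9 (hg19 chr9:79634571-79635869), a score of 237 (211 to 265), which is 5.43 times the median of autosomal symbols. Its whole interval lay inside a single peak of 6900 bp, which ran from -0.92 to 5.98 kb relative to the start. FOXE1, a factor of thyroid development, held 490 reads over 3.45 kb (chr9:100615536-100618986) and scored 142 (130 to 155). Peaks covered 72.9% of it, and a peak of 7950 bp ran from -7.24 to 0.714 kb relative to the start. FOXL2, a factor of ovarian granulosa cells and of the eyelid, held 362 reads over 2.92 kb (chr3:138663066-138665982), scored 124 (112 to 138) and was covered to 89.7% by 2 peaks. Its score interval overlapped those of FOXE1 and FOXA2, so FOXL2 cannot be ranked against them at this depth.

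FOXA1 and FOXA2, factors of foregut and liver, had covered bodies, and FOXA3 did not. FOXA2 held 563 reads over 4.45 kb (chr20:22561643-22566093), scored 126 (116 to 137) and had 69.5% of its length in 2 peaks. FOXA1 held 1092 reads over 10.1 kb (chr14:38059189-38069245), scored 109 (102 to 115) and had 59.6% of its length in 4 peaks, the widest of 7800 bp over the start. The FOXA1 interval is 1.77 times as long as the gene in RefSeq and overlaps TTC6, so part of its reads are shared. FOXA3, also a liver factor, held 305 reads over 9.54 kb on chromosome 19 and scored 32.0 (28.5 to 35.8), without a peak in the interval and with the nearest one 60.1 kb away. FOXL1, a factor of gut mesenchyme, held 314 reads over 3.19 kb (chr16:86612115-86615303), scored 98.5 (87.9 to 110) and had 65.4% of its length in 3 peaks. The FOXL1 interval is 0.647 times as long as the gene in RefSeq, and cover over the RefSeq length was not computed.

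Cover split the restricted class into separate ranges. Over the deposited intervals, these 7 genes had over 50% of their length in peaks. The other 19 had 0% to 17.4%, with no member between. Whether the gap holds over RefSeq lengths was not tested. Without the FOXD4 copies the second set held 12 genes with scores from 6.67 to 104 and a median of 48.8. The 7 scored 98.5 to 237, with a median of 124. Peaks and scores come from the same library, so the higher scores of the 7 are not a result separate from their cover. FOXI2 had a score within the range of the 7, 104 (93.9 to 114) on 410 reads, but no peak in its interval. Its nearest peak, 1050 bp wide, lay 1348 bp before the start. FOXI2 was the 1 member with at least 2 times the median score and no peak. FOXI1, a factor of the inner ear and of acid-secreting kidney cells, scored 74.2 (65.8 to 83.4) with no peak in its interval and 23.5% of the bases within 50 kb of its start in peaks. FOXB1, a factor of the hypothalamus and midbrain, scored 69.1 (67.0 to 71.3) on 3975 reads, with 17.4% in 7 peaks. Its deposited interval spans 57.5 kb, 18.4 times the length in RefSeq, and the peak nearest to the start began 11.8 kb into it. FOXB1 lies on chromosome 15, of which KBM7 cells are known to carry a piece in an extra copy. Whether that piece holds FOXB1 was not checked here. FOXH1 lies on chromosome 8, also known to be present in an extra copy. FOXH1, the SMAD partner in Nodal signalling, scored 49.2 (41.5 to 58.0) without a peak. Scores are not corrected for copy number, and the part of copy number in these values was not tested.

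FOXC1 and FOXD2 had the lowest scores of the restricted genes outside the FOXD4 copies. FOXC1, a factor of the eye and of mesoderm, held 23 reads over 3.45 kb and scored 6.67 (4.23 to 10.0), which is 0.153 times the median of autosomal symbols. FOXD2 scored 18.4 (14.7 to 22.7) and FOXD3, a factor of the neural crest and of pluripotent cells, 48.4 (39.3 to 58.8), with its nearest peak 1203 bp beyond the end of the gene. FOXC2, a factor of lymphatic vessels, scored 31.5 (23.6 to 41.2) and FOXF1, a factor of lung and gut mesenchyme, 34.8 (29.2 to 41.2). The FOXD2 and FOXC2 intervals are 1.77 and 0.580 times as long as the genes in RefSeq. FOXE3 of the lens scored 67.2 (56.2 to 79.6) without a peak. Among the 11 restricted genes without a peak that are not copies, the nearest peak lay 1203 bp to 60.1 kb away, with a median of 5.57 kb, and 8 of them had one within 10 kb. Of the 3701 protein-coding symbols under 10 kb without a peak, 30.6% had one within 10 kb, and the median distance was 23.1 kb.

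FOXD4 and its copies, which lie on chromosomes 2 and 9 and arose by duplication, had scores from 0 to 78.3 with a median of 12.5. FOXD4L2 and FOXD4L4 held 0 reads over 3.11 kb, which allows a score of up to 0.965 reads per kb when 0 reads are taken to allow 3, and up to 1.19 by the exact Poisson interval. FOXD4L3, FOXD4L6 and FOXD4L5 scored 6.61 (3.91 to 10.4), 12.5 (8.64 to 17.4) and 12.5 (8.92 to 17.1), with 18, 34 and 39 reads. FOXD4 scored 44.0 (35.7 to 53.8) on 96 reads and FOXD4L1 78.3 (66.7 to 91.4) on 162 reads, with 14.5% of FOXD4L1 in a single peak of 300 bp. A read that matches several copies cannot be placed, and no source used here says how such reads were counted. In these copies little mark and unplaced reads cannot be told apart. In the 5 copies on chromosome 9 other than FOXD4, the nearest peak was 113 to 2154 kb away, and no base within 50 kb of their starts lay in a peak.

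Peaks took different places at the 2 loci with 3 forkhead genes each that are described here, on chromosomes 6 and 16. On chromosome 6 FOXQ1, FOXF2 and FOXC1 lie within 301 kb (chr6:1312675-1614127), with 75.1 kb between the first pair and 215 kb between the second. The span held 44 peaks, which covered 23.4% of the sequence between the genes and 0% of the genes. FOXQ1 scored 50.5 (41.7 to 60.5) with a peak of 2100 bp ending 0.774 kb before its start, FOXF2 scored 52.2 (46.5 to 58.5) with the nearest peak 5.17 kb away, and FOXC1 scored 6.67 with the nearest peak 5.57 kb away. The Poisson interval of FOXC1 lay below those of its 2 neighbours. On chromosome 16 FOXF1, FOXC2 and FOXL1 lie within 71.2 kb (chr16:86544144-86615303), and the span held 7 peaks. Here 23.7% of the genes and 8.92% of the sequence between them lay in peaks, all of the first in FOXL1. FOXC2 ends 9.58 kb before FOXL1 begins and had no peak, and the score of FOXL1 was 98.5 beside 31.5 for FOXC2, with separate intervals. FOXE3 and FOXD2 on chromosome 1 are also close, 17965 bp apart, and neither held a peak.

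**Figure D2:**
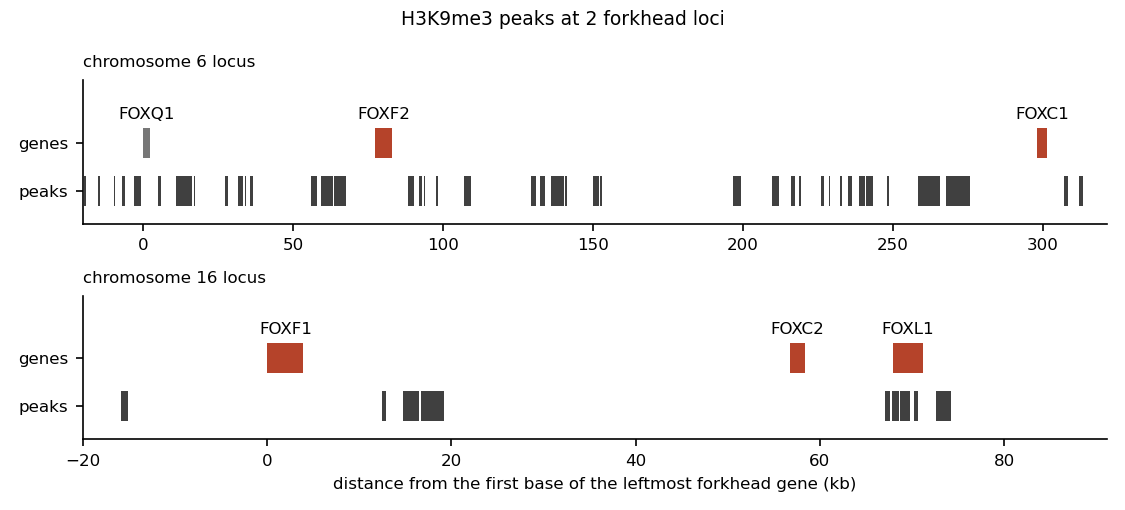
Maps of the FOXQ1, FOXF2 and FOXC1 locus on chromosome 6 and the FOXF1, FOXC2 and FOXL1 locus on chromosome 16, drawn to scale with distance in kb from the first base of the leftmost forkhead gene, genes in the upper row (FOXQ1 in grey) and H3K9me3 peaks in the lower row. On chromosome 6 the 44 peaks lie between the genes and cover none of them, and on chromosome 16 peaks overlap FOXL1 but neither FOXF1 nor FOXC2.

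The widely expressed genes had more even scores, from 11.5 to 60.0 reads per kb, with a median of 33.1 beside 34.4 over protein-coding symbols. Of the 17, 13 (76.5%) lay below the median of autosomal symbols, against 62.8% of protein-coding symbols. FOXM1, the factor of mitotic genes, was lowest at 11.5 (10.1 to 13.1) on 223 reads over 19.4 kb, with no peak within 81.7 kb of its interval, which overlaps those of ITFG2, C12orf32 and a Y_RNA. FOXJ1 of motile cilia scored 16.5 (13.2 to 20.5) on 82 reads over 4.96 kb, FOXJ2 19.9 (18.1 to 21.8) on 453 reads over 22.8 kb and FOXP4 20.6 (19.5 to 21.9) on 1155 reads over 56.0 kb. FOXK2, a repressor that binds SIN3A, scored 22.7 (21.7 to 23.7) on 1924 reads over 84.9 kb. These 5 genes held no peak, and neither did FOXN1, FOXN4 and FOXO6, which scored 39.5, 36.7 and 24.9. The FOXN1 interval is 0.459 times as long as the gene in RefSeq, so part of that gene may lie outside it. The nearest peak lay 6.21 kb before the FOXN1 interval, and whether that peak lies inside the RefSeq gene was not tested.

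Among the FOXO genes, whose proteins respond to insulin signalling, FOXO1 scored 49.9 (48.6 to 51.3) on 5539 reads and FOXO3 33.0 (32.0 to 34.1) on 4128 reads, with separate intervals. Peaks covered 4.60% of FOXO1, in 4 peaks of 600 to 1950 bp, and FOXO3 held a single peak of 750 bp that began 1.71 kb after the start. FOXO3B, the copy of FOXO3, was highest of the class at 60.0 (56.6 to 63.6) on 1146 reads over 19.1 kb, with 24.7% in 6 peaks. RefSeq lists FOXO3B also as a synonym of the pseudogene ZNF286B, and the deposited interval overlaps AC026271.1, so its reads cannot be given to 1 gene. FOXP1, of lymphocyte development, scored 31.2 (30.7 to 31.6) and FOXP2, a factor of the brain known from speech disorders, 33.1 (32.6 to 33.5). Their intervals are the longest of the family, 629 and 607 kb, and peaks covered 0.0953% and 1.43% of them. FOXN3, a checkpoint repressor, scored 44.2 (43.6 to 44.8) on 21832 reads with 11 peaks over 3.88% of 494 kb. FOXJ3 scored 45.9 (44.9 to 47.0) on 7321 reads with 9.23% of 159 kb in 9 peaks, and FOXK1 40.6 (39.5 to 41.7) on 5183 reads with 10.9% of 128 kb in 8 peaks. FOXN2 scored 37.2 (35.8 to 38.7) with 1 peak of 4800 bp.

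Peaks inside the widely expressed genes did not reach a start. The 49 peaks in 9 of these genes were 300 to 5250 bp wide, with a median of 1050 bp beside 900 bp over all autosomal peaks, counting peaks that touch as separate. The peaks nearest to a start began 1.71 kb into FOXO3 and 2.31 kb into FOXK1. The FOXK1 interval is 1.43 times as long as the gene in RefSeq, and whether both begin at the same base was not tested. In FOXN3, 5 of the 11 peaks lay in the last 10% of the interval, and the FOXP1 peaks, both of 300 bp, began 537 and 543 kb from the start. FOXK1 held its widest peak, of 5250 bp, 12.4 kb from the start.

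**Figure D3:**
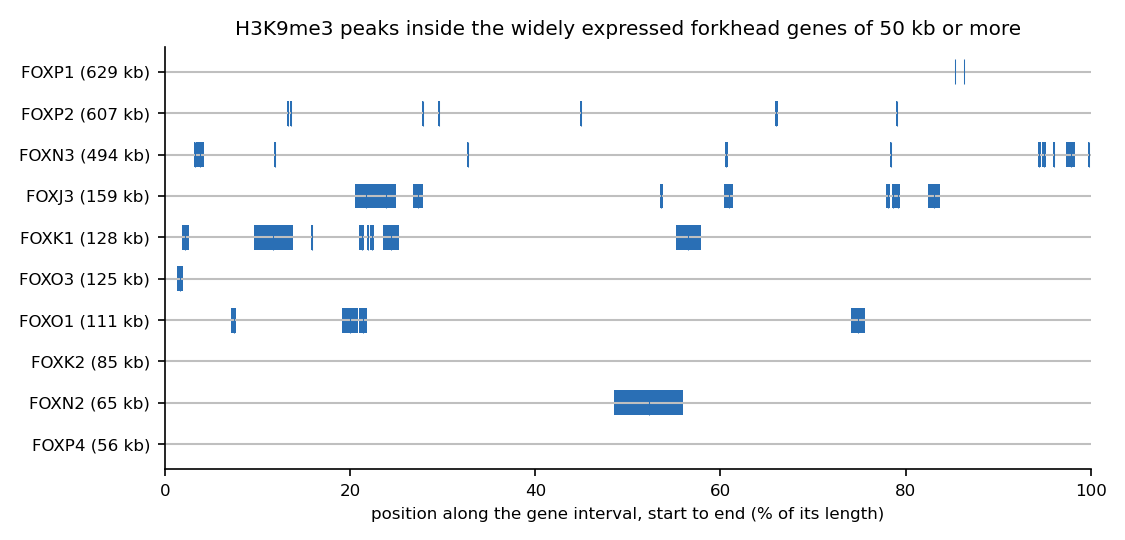
Positions of H3K9me3 peaks (blocks to scale, with a thin line at the centre of each so that narrow peaks can be seen) along the 10 widely expressed forkhead genes of 50 kb or more, from start to end as a percentage of the interval length. No block lies at the start of a gene, FOXK2 and FOXP4 hold none, and 5 of the 11 peaks of FOXN3 lie in its last 10%.

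Restricted genes had higher scores than widely expressed genes in the median, with a wider spread. The medians were 50.7 and 33.1 reads per kb, a difference of 17.7, and the middle 50% of genes ran from 21.7 to 102 and from 22.7 to 40.6, so the lower quartiles nearly met. Without the near-identical copies the medians were 69.1 and 33.1, a difference of 36.1. By reads summed over the class and divided by summed length, the values were 66.0 and 36.0. Peaks covered 20.1% of the summed length of the restricted genes and 2.80% of that of the widely expressed genes, against 5.97% over protein-coding symbols. No test stands behind these differences, since genes of 1 library are not replicates.

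The share of genes with a peak went the other way, 9 of 26 restricted genes (34.6%) and 9 of 17 widely expressed genes (52.9%). Interval length differs between the classes, with medians of 3.15 and 64.7 kb, and longer genes meet a peak more often. Of protein-coding symbols, 19% of those under 10 kb, 40.5% of those from 10 to 100 kb and 89% of those of 100 kb or more held a peak. Among restricted genes under 10 kb, 7 of 24 held a peak, and 14 of 24 lay above the median score of autosomal symbols, against a background of 39.7%. Of the widely expressed genes 7 of 7 with 100 kb or more held one and 2 of 9 with 10 to 100 kb. Above the median score lay 3 of the 7, against a background of 49%, and 1 of the 9, against 32.3%. The classes share few lengths: FOXJ1 is the 1 widely expressed gene under 10 kb, and FOXA1 and FOXB1 are the 2 restricted genes above it, so class and length cannot be told apart in values over whole intervals. Scores of protein-coding genes were highest at the shortest lengths, with a median of 80.6 at 0.3 to 1 kb. At 1 to 2 kb, the length class of FOXB2, FOXC2 and FOXE3, the median was 59.4 and the middle 50% ran from 21.1 to 99.5. Among protein-coding genes of 3 to 5 kb the median score was 25.2 and the middle 50% ran from 15.5 to 59.7. For those of 100 to 200 kb the median was 41.1. Of the restricted genes under 10 kb, 6 of 24 had 50% or more of their length in peaks, against a background of 9.25% of protein-coding symbols of that length, and 7 of 24 had at least 2 times the median score, against 18.9%. A start peak lay in 6 of the 24, against 14.3%. At the low end, 7 of 24 had a score at or below the median divided by 2, against a background of 38%.

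**Figure D4:**
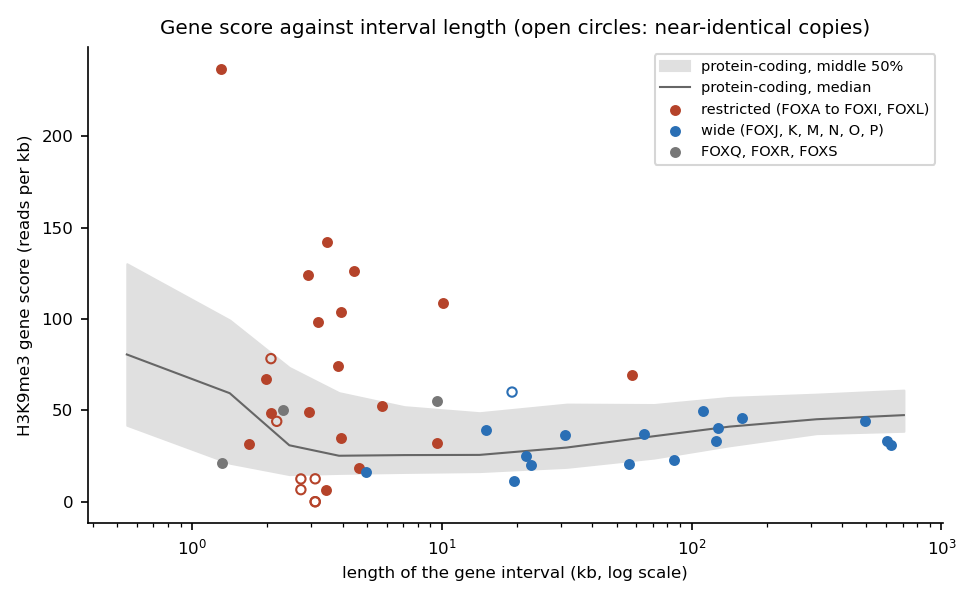
H3K9me3 gene score in reads per kb against interval length in kb (log axis) for 45 of the 46 forkhead genes, with the median and the middle 50% of protein-coding autosomal symbols in length classes as a grey line and band. Restricted genes lie mostly under 10 kb and on both sides of the band, and widely expressed genes lie mostly above 10 kb and at or below the upper edge of the band, apart from the copy FOXO3B.

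Windows of equal size around the start hold the same number of bases for every gene. They do not take gene length out fully. Those of 5 kb on each side hold the whole of most restricted genes but only the first part of most widely expressed ones. A peak lay within 1 kb of the start in 7 of 26 restricted genes (26.9%) and in 0 of 17 widely expressed genes. The background was 14.3% of all autosomal symbols and 12.3% of protein-coding symbols. Were the 17 a sample of more genes, 0 taken to allow 3 would allow a share of up to 17.6%. The 7 are the same genes that were covered over most of their length, so the 2 counts are not separate results. FOXQ1 and FOXR1 also had a start peak, of 2100 and 750 bp. Within 5 kb on each side of the start, peaks covered 18.5% in the mean of the restricted genes and 1.81% in the mean of the widely expressed genes, and the mean of protein-coding symbols was 6.87%. The median was 0 in both classes, since 16 of 26 (61.5%) and 13 of 17 genes (76.5%) had no peak in that window, against 70.6% of all autosomal symbols and 73.5% of protein-coding symbols. FOXB2 and FOXE1 had 89.5% and 88.6% of this window in peaks, FOXA1 78.0%, FOXL2 69.0%, FOXA2 52.1% and FOXL1 32.1%. FOXK1, at 10.5%, was highest of the widely expressed genes. Within 50 kb on each side the median cover was 9.53% for restricted and 4.20% for widely expressed genes, against 3.33% over protein-coding symbols. The means were 10.1%, 4.75% and 7.58%, so the widely expressed genes lay above protein-coding symbols by the median and below them by the mean. FOXE1 and FOXB2 were highest in this wide window too, at 33.0% and 31.7%, followed by FOXQ1 at 29.5% and FOXA1 at 26.8%.

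Mean cover around the starts of restricted genes reached beyond the genes themselves. With the copies left out, it averaged 23.8% in the 5 kb before the start and 26.6% in the 5 kb after it over 19 genes, against 11.5% from 50 to 10 kb before and 13.0% from 10 to 50 kb after. The highest bins of 1 kb were those from 12 to 13 kb after the start, at 39.6%, and the last kb before the start, at 35.2%. The median interval of these genes is 3.82 kb long, so the first of these bins lies past the end of most of them. The 16 widely expressed genes averaged 1.13% in the 5 kb before the start and 2.25% in the 5 kb after, against 4.59% and 5.60% in the 2 distant ranges. Over protein-coding symbols the same 4 values were 6.94%, 6.80%, 8.12% and 7.23%. Of the 19 restricted genes, 10 had no peak within 5 kb of the start, and the median cover there was 0%. The means thus rest on some of the genes. FOXB2, FOXE1 and FOXA1 were highest, with 89.5%, 88.6% and 78.0% of that window in peaks. With 19 genes, single bins of the restricted class rest on few genes. Windows of neighbouring members also overlap. In the bin from 12 to 13 kb, the FOXC2 part is a peak inside FOXL1. The FOXB1 part of that bin lies within the long FOXB1 interval.

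**Figure D5:**
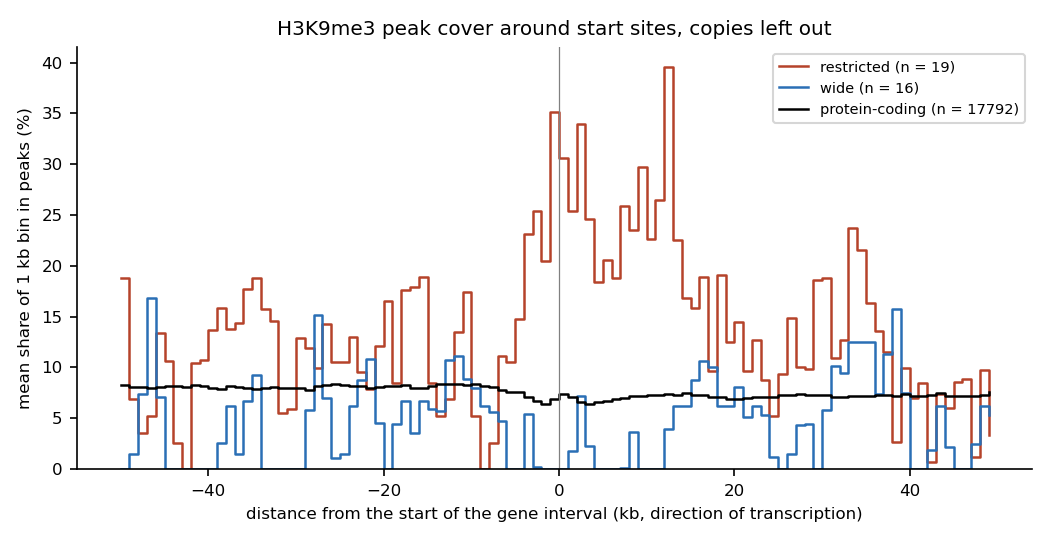
Mean share of each 1 kb bin lying in H3K9me3 peaks, from 50 kb before to 50 kb after the start of the gene interval in the direction of transcription, for 19 restricted and 16 widely expressed forkhead genes without near-identical copies and for 17792 protein-coding symbols. The mean of the restricted genes rises to 35.2% in the last kb before the start and stays above the protein-coding line to 24 kb after it. The widely expressed genes lie below that line in most bins within 10 kb of the start.

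The 3 genes of neither class were FOXR1, FOXQ1 and FOXS1. FOXR1 scored 55.3 (50.7 to 60.2) on 530 reads with a peak of 750 bp over its start, and FOXQ1 scored 50.5 as given above. FOXS1 scored 21.2 (14.1 to 30.7) on 28 reads over 1.32 kb, with the nearest peak 62.5 kb away.

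Regulators and partners of forkhead proteins mostly had low scores. The list of 34 genes held AKT kinases, 14-3-3 proteins, acetyltransferases, SMADs, SIN3 corepressors and cell cycle targets. The median was 22.5 reads per kb, and 5 of 34 lay above the median of autosomal symbols, where the background is 50% of all symbols and 37.2% of protein-coding ones. A peak lay in 15 of 34 (44.1%), against a background of 43.8% of protein-coding symbols. These shares are not matched for length. The median interval was 55.5 kb in the list and 27.4 kb over protein-coding symbols, of which 62.0% of those from 50 to 100 kb held a peak. CTBP1, a corepressor that binds FOXP proteins, was highest at 152 (148 to 156) with 69.2% of its 38.5 kb in peaks, followed by BCL2L11, a pro-apoptotic FOXO target, at 102 (99.1 to 105) with 30.5% in peaks. SMAD3, on chromosome 15, scored 85.8 (84.2 to 87.4) with 3.42% in peaks. The lowest was CDKN1B, the cell cycle inhibitor p27 and a FOXO target, at 10.9 (8.67 to 13.6). The kinase SGK1, at 45.6 and named after its value was seen, also lay above the median.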

How the data were processed

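H3K9me3 chromatin from KBM7 cells was crosslinked, sheared, immunoprecipitated and sequenced, per the labels. Bowtie2, MACS and hg19 are named, without versions or roles, per the submitters' processing notes. No source used here states read filters, how reads with several matches were treated or whether IgG entered peak calling. The authors deposited raw read counts per gene interval, the interval length, and a score that is a signal of reads per kb. Dividing counts by length gave the deposited score to within 3.03e-06. The score is not scaled to depth nor corrected for IgG or copy number. The deposited peak list holds positions without heights, all on a grid of 150 bp.

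Total library depth is not stated in any source used here. Peaks that touch were counted apart. The highest-scoring interval was used for the 241 autosomal symbols with several. Peak cover, distances and windows around starts were computed with Python 3.11.15, numpy 2.4.6, pandas 2.3.3 and scipy 1.17.1, and figures with matplotlib 3.10.9. Overlap functions were tested on simulated data. Gene types came from RefSeq (GRCh38.p14) for 21016 of 34280 symbols. Of the 46 members, 16 overlap another interval and share reads with it. With 1 library no p-value was computed. Members, classes and lists were chosen with earlier results of these data known. Values in full were given by rule to the 5 highest and 5 lowest scores of each class, the 8 highest covers, members with a start peak, members of shared loci and 9 fixed genes, and to the 3 highest and the lowest partner genes. The rule let every other member be named, and those picked out were picked with values seen. The values of 1 member and 1 partner gene are not reported here by name.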

Additional observations from a re-analysis of the deposited data

How the results depend on the processing

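Of 61 alternative values, 46 kept their direction and stayed within 1.5 times the value reported, or within its exact 95% binomial interval where it is a share of 1 list. The difference in median score of 17.7 reads per kb between restricted and widely expressed genes was 36.1 without near-identical copies, 54.0 in intervals of 10 kb or more (2 against 16 genes), 32.3 in intervals under 10 kb (24 against 1) and 31.8 by the mean. The difference in summed cover of 17.3 percentage points was 10.9 with FOXJ genes counted as restricted and 11.0 with FOXN1, FOXN4 and FOXO6 counted so. The difference in the share of genes with a peak, -18.3 points, turned to 43.8 in intervals of 10 kb or more, 29.2 in intervals under 10 kb and 22.9 when a peak had to cover 10% of the interval. It was -7.89 without copies, -8.37 with peaks of 1500 bp or more, -6.79 with intervals widened by 5 kb and -33.3 with FOXN1, FOXN4 and FOXO6 counted as restricted. The share of all members with a peak, 41.3%, was 61.1% in intervals of 10 kb or more and 23.9% with the 10% overlap. The cause of these changes was not tested. The cover within 5 kb of the start kept its direction under every alternative run for it. The share with a start peak was 34.6% against 5.88% with a start window of 2 kb. Under its other alternatives the widely expressed share stayed at 0%, so they could not reverse the difference. Leaving out 7 members whose interval is over 1.5 times longer or shorter than in RefSeq was chosen after seeing the data and moved no value past these bounds. No paired analysis was possible because the study has 1 library per antibody. Scores of genes with few reads, such as FOXC1 and FOXS1, are limited by depth.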

Other observations

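Forkhead genes on the X chromosome lie outside the rule for members. FOXR2 scored 88.9 reads per kb (78.2 to 101, exact 95% Poisson interval) on 248 reads over 2.79 kb, with 43.0% of its length in a peak. FOXP3, the factor of regulatory T cells, scored 44.7 (41.4 to 48.3) on 644 reads with 7.30% of 14.4 kb in a peak. FOXO4, an insulin-responsive FOXO factor, scored 14.3 (11.7 to 17.3) on 105 reads, with the nearest peak 141 kb away. The X chromosome and the autosomes were not set against each other here.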
